A study of Danio rerio with 4 samples.

Results

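Kinesins are motor proteins that walk along microtubules, and 6 kinesin genes measured by 7 probes were compared between Muller glia of the uninjured zebrafish retina and progenitors that arise from such glia after injury. A probe counted as a kinesin probe where its gene name in the scanner files, or the current symbol of its RefSeq accession, began with kif and a digit. This rule took 7 of the 21495 probes on the array and 6 of the 8752 genes that could be named, against 43 genes with such symbols in the zebrafish gene table. Glia were sorted by green fluorescent protein from uninjured retinas of gfap:gfp fish aged 7 months (n = 2 arrays), a line in which the promoter of the glial filament gene gfap drives the fluorescence. Progenitors were sorted in the same way from fish of the line named 1016 tuba1a:gfp, aged 7 and 8 months (n = 2 arrays). In this line a tuba1a promoter drives the fluorescence. The cells were taken 4 days after the retina was injured by needle pokes through the back of the eye. Line and injury change together here, and their contributions cannot be told apart.

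Each array gave a single-colour signal per spot, and every probe was present as 2 spots. Signals are given as the scanner software's processed intensity after spatial detrending, or as log2 of that intensity relative to the array's 75th percentile, here called the scaled level. The 75th percentile was 4289.5 to 4898.6, between 71.7% and 82.0% of spots were well above background, and arrays of 1 group correlated at r = 0.998 or more across 16596 probes. The labels call the samples duplicates and name no separate fish pools. By their labelled ages the progenitor arrays came from different fish, and the spread between them includes any effect of age. The glia arrays share the same labelled age, and the spread between them may be technical only. The p-values here rest on these spreads between arrays. The number of arrays limits the precision of every value. In progenitors 27.6% of the 7080 genes tested passed as higher and 40.3% as lower (limma, adjusted p under 0.05), and the median gene stood at -0.11 on the log2 scale. Counted over all 16596 probes, the shares were 27.2% and 38.3%. Median scaling shifted that median by -0.22 and scaling on spike-in controls by 1.12. The split of 1955 higher and 2850 lower genes became 1296 and 4274, and 6623 and 157, under those scalings.

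Mitotic kinesins build and position the spindle, move chromosomes and separate the daughter cells, and dividing cells make them in the last phases of the cycle. Transport kinesins carry vesicles and organelles outwards along microtubules, which matters most in cells with long processes such as neurons and photoreceptors. In the zebrafish retina, Muller glia re-enter the cell cycle after injury and give rise to progenitors of neurons.

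The mitotic members on the array were kif11, kif23, kif4 and kif18a, and all 4 were higher in progenitors, by 7.81-fold to 15.0-fold. The transport member kif1b was 1.21-fold higher at a signal close to background, and kif2a, which works both at the spindle and in growing neurites, did not pass the test. Among all genes 2.74% were called higher by 2 or more on the log2 scale, a size that each of the 4 mitotic members passed. In bulk samples of this kind, fewer cells of a type and less RNA per cell cannot be told apart.

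kif23 encodes the mitotic kinesin-like protein of centralspindlin, which bundles midzone microtubules and is needed to cut the daughter cells apart. Its probe lies at danRer2 chromosome 18, 25156241 to 25156299, minus strand. The kif23 signal was 247 and 246 in glia and 4143 and 4080.0 in progenitors. Both progenitor arrays lay far above both glia arrays, and the 2 spots of the probe differed by a ratio of at most 1.02 on any array. The scaled level rose from -4.15 ± 0.05 to -0.24 ± 0.03 (SD, n = 2), a log2 difference of 3.91 ± 0.05 (SE) or 15.0-fold (limma, adjusted p = 5.6e-05). It ranked 25 of 7080 genes from the highest difference.

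kif4 encodes a chromokinesin, a motor carried on chromosome arms that also shortens microtubules of the central spindle. Its probe, named zgc:66125 in the scanner files, lies at chromosome 8, 33810157 to 33810216, minus strand. The kif4 signal was 226 and 284 in glia and 4044 and 3800.2 in progenitors. The glia arrays differed more from each other than for kif23, yet the groups stayed well apart. The log2 difference was 3.80 ± 0.11 (limma, adjusted p = 0.000186), from 3.61 to 4.00 over the 4 pairings of a progenitor array with a glia array.

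kif11 encodes the tetrameric kinesin-5 motor that slides antiparallel microtubules and pushes the spindle poles apart. Its probe lies at chromosome 17, 17722164 to 17722223, minus strand. The kif11 signal was 291 and 319.8 in glia and 4582 and 4467 in progenitors. Again the groups did not overlap, and the log2 difference was 3.74 ± 0.05 or 13.4-fold (limma, adjusted p = 5.6e-05). The 95% interval ran from 3.59 to 3.89, that of kif4 from 3.48 to 4.12 and that of kif23 from 3.77 to 4.05. The order of these 3 differences therefore lies within their error.

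kif18a encodes a kinesin-8 motor that dampens the movements of chromosomes before they separate. It had a pair of probes, named zgc:55995 in the scanner files, at chromosome 7, 25743061 to 25743120 and 25743020 to 25743080, minus strand. They share 20 bases and so are not independent measures. The brighter probe read 137 and 155 in glia and 1332 and 1206 in progenitors, and the dimmer one 31.4 and 38.4 against 302 and 344. The 2 probes agreed within their errors, at 2.97 ± 0.08 and 3.07 ± 0.11 on the log2 scale (limma, adjusted p = 0.000166 and 0.000255). The interval of the brighter probe, 2.73 to 3.20, lay below those of the other 3 mitotic members. With normexp background correction kif18a stood at 2.00 and lost its call (adjusted p = 0.0592), and the dimmer probe at 1.13. On the glia arrays the raw spots of the dimmer probe were only 1.14 and 1.16 times the local background, and those of the brighter probe 1.45 and 1.50 times.

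**Figure D1:**
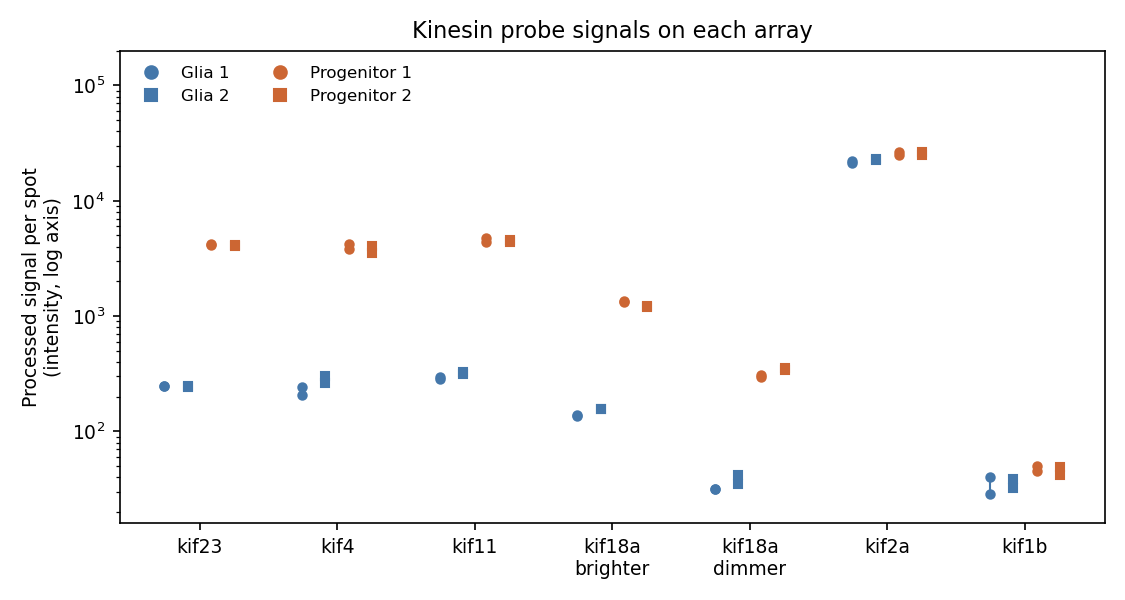
Processed signal of each spot (intensity, log axis) for the 7 kinesin probes on the 4 arrays, glia in blue and progenitors in orange, with a circle for replicate 1, a square for replicate 2 and a line joining the 2 spots of a probe. The probes of kif23, kif4, kif11 and kif18a are far brighter on both progenitor arrays, while kif2a and kif1b differ little between the groups.

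kif2a encodes a kinesin-13 motor that does not walk but takes microtubule ends apart, both at spindle poles and in developing axons. Its probe, named zgc:103670 in the scanner files, lies at chromosome 8, 6605073 to 6605133, minus strand. The kif2a signal was 21615 and 22720.2 in glia and 25799 and 25655 in progenitors. The raw spots were 68.3 to 81.3 times the local background on every array, so this probe was measured far above it. After scaling, the progenitor arrays still lay above the glia arrays, but by only 0.04 to 0.09. The difference of 0.06 ± 0.04 did not pass (limma, adjusted p = 0.244), with a 95% interval from -0.05 to 0.18 that corresponds to 0.963-fold to 1.13-fold. The small value depended on the scaling, at -0.16 with median scaling and 0.18 with quantile normalization (limma, adjusted p = 0.0224). With spike-in scaling it was 1.19 (limma, adjusted p = 1.2e-05). A probe similar to mouse KIF2, near the kif2a probe on the same strand, stood at -0.32 ± 0.09 and is described below.

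kif1b encodes a kinesin-3 motor that carries synaptic vesicle precursors and mitochondria along axons. The probe was designed on the Kif1b alpha transcript and has no assigned chromosome in danRer2. The kif1b signal was 34.5 and 35.4 in glia and 47.6 and 45.2 in progenitors, with raw spots at 1.14 to 1.21 times the local background. The groups did not overlap, but the 2 spots of the probe differed by a ratio of up to 1.43 within an array. The log2 difference of 0.27 ± 0.05 passed narrowly (limma, adjusted p = 0.0161). Larger values came with quantile normalization (0.34, limma, adjusted p = 0.0119) and spike-in scaling (1.39, limma, adjusted p = 8.4e-06). The call ended with median scaling (0.05), with an intensity trend (adjusted p = 0.152), without glia replicate 1 (adjusted p = 0.0670), without glia replicate 2 (0.0660) and without progenitor replicate 1 (0.0520), and normexp turned the value to -0.61.

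Set side by side, the median of the 4 mitotic members was 3.77, and it exceeded the kif1b difference by 3.50. Over the 4 pairings, which share arrays and are not independent, this gap ran from 3.41 to 3.58, a spread of 0.09 (SD). The gap rests on a kif1b signal close to background. It was 3.77 with normexp and 3.14 with the mean of a gene's probes. Even kif18a, the lowest of the mitotic members, stood 2.70 above kif1b on the log2 scale. Since kif1b was the only transport motor the rule found, no test of mitotic against transport members was made. All 6 members had both progenitor arrays above both glia arrays, as had 35% of all genes tested.

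**Figure D2:**
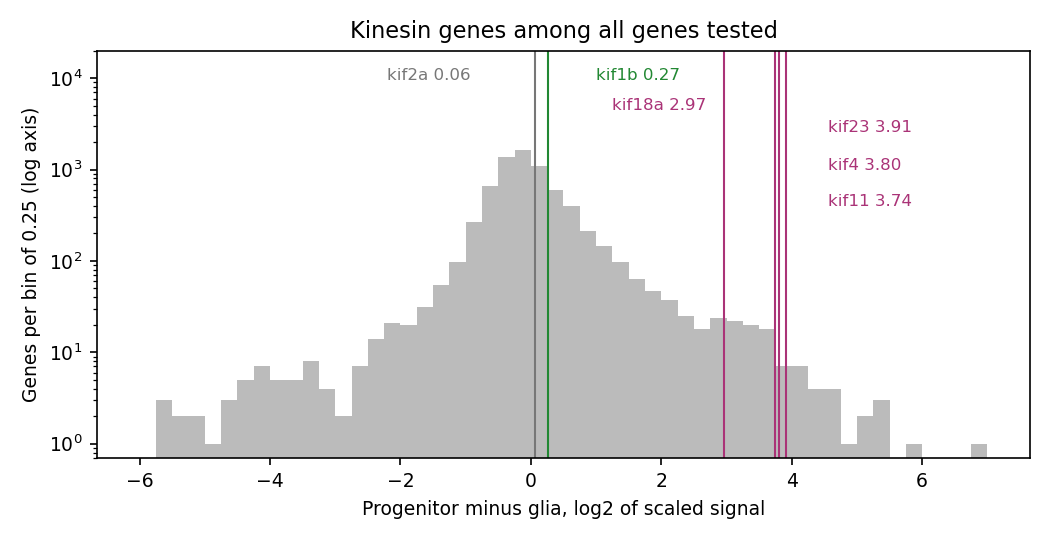
Histogram of the progenitor minus glia difference (log2 of scaled signal) for 7080 genes, with the number of genes per bin on a log axis and vertical lines at the 6 kinesin genes. The lines of kif11, kif4 and kif23 stand at 3.74 to 3.91 in the thin upper tail, kif18a at 2.97, and kif1b and kif2a at 0.27 and 0.06 near the middle.

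Another 25 probes on the array carried a kinesin name or description without meeting the rule, and 18 of them were tested. They were chosen by their annotation after the files had been opened. The probe described as mitotic kinesin-like protein 1, the older name of the kif23 product, shares 46 bases with the kif23 probe on the same strand. It read 384 and 336 in glia and 5888 and 5470.0 in progenitors, a log2 difference of 3.84 ± 0.10 (limma, adjusted p = 0.000151).

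Probes of other mitotic motors varied. kifc1 encodes a kinesin-14 that walks towards microtubule minus ends and focuses spindle poles. Its brighter probe read 459.6 and 446 in glia and 4805 and 4753 in progenitors, a rise of 3.25 ± 0.06 (limma, adjusted p = 7.2e-05). The dimmer kifc1 probe rose by 2.47 ± 0.04, so the probes differed in size but not in direction. The probe described as similar to human KIF20A, a motor of the midzone and cleavage furrow, rose by 3.20 ± 0.08 (limma, adjusted p = 0.000148), from 41.1 and 49.4 to 454 and 467. Its call ended with normexp (1.36, limma, adjusted p = 0.200). A probe carrying an older clone name of kif20a, 25482 bases from it on the same strand, was well above background on no array. A probe described as similar to the chromokinesin Xkid, studied in frog eggs, rose by 0.97 ± 0.19 (adjusted p = 0.0155). That call was lost without progenitor replicate 1 (1.06), without progenitor replicate 2 (0.88) and with normexp (0.12). The probe for cenpe, a kinesin of the kinetochore, was not well above background in progenitors and stood at -0.68 ± 0.24 (adjusted p = 0.0701).

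Probes that carried an older clone name of a kif gene gave little signal. A second kif11 probe lies 440 bases from the first but on the opposite strand. It read 34.4 and 33.9 in glia and 50.4 and 58.1 in progenitors, a difference of 0.52 ± 0.08 against 3.74 for the probe on the kif11 strand. A second kif23 probe, 5730 bases away, also lies on the opposite strand, and on no array were both of its spots well above background. The same held for the probes of kif14, kif20a, kif3a and kif5aa, for a further kif2a probe and for the probe described as kinesin 6. These probes set no level, and no difference is given for them.

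Of transport motors outside the rule, only probes similar to the kinesin heavy chain were tested. Those probes did not rise with the mitotic ones. The kif3a and kif5aa probes set no level, and a probe annotated only as kinesin, with no role given, rose by 1.44 ± 0.06. Of the 2 probes similar to the human kinesin heavy chain, the motor subunit of kinesin-1, one read 21950 and 28171 in glia and 23373 and 24795 in progenitors. Its difference of -0.20 ± 0.12 did not pass (limma, adjusted p = 0.207). The other read 20611 and 22265 against 16802 and 18330 and was lower by 0.44 ± 0.06 (log2 difference -0.44, limma, adjusted p = 0.00514). With spike-in scaling these probes stood at 0.93 and 0.68.

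The cargo-binding light chains of kinesin-1 were divided. klc1a was higher by 0.63 ± 0.08 (limma, adjusted p = 0.00408), with dim signals of 87.9 and 85.9 in glia and 155.8 and 143 in progenitors, and turned to -0.18 with normexp. klc1b stood at -0.07 ± 0.05 (adjusted p = 0.239) and klc2 at -0.28 ± 0.06 (adjusted p = 0.0163). The klc2 call ended without glia replicate 1 (-0.26), without glia replicate 2 (-0.29), without progenitor replicate 1 (-0.22) and with normexp (-0.27). The probe similar to a human light chain stood at -0.20 ± 0.08 (adjusted p = 0.0878).

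Adaptors of kinesin-2, the heterotrimeric motor of cilia and axons, showed no difference that passed. The brighter kifap3a probe read 5910.3 and 6190.4 in glia and 6792 and 6816 in progenitors. On the scaled level this was a difference of 0.02 ± 0.04 (limma, adjusted p = 0.700, 95% interval -0.10 to 0.13). kifap3b stood at -0.34 ± 0.22 (adjusted p = 0.244) and passed without progenitor replicate 2 (-0.64). Of the probes described only by family, the one annotated as kinesin rose by 1.44 ± 0.06 (adjusted p = 0.000384) from 886 and 954 to 2866 and 2684. The one similar to mouse KIF2 lies on the kif2a strand, 8985 bases from the kif2a probe and 4280 from the further kif2a probe. Whether it measures kif2a was not tested. It stood at -0.32 ± 0.09 (limma, adjusted p = 0.0364). That call was lost without glia replicate 1 (-0.30), glia replicate 2 (-0.35) or progenitor replicate 1 (-0.21). It was also lost with the replicate number as a block (-0.32) and in 3 other settings. The probe annotated as a kinesin-related protein stood at 0.36 ± 0.16 (adjusted p = 0.112), and passed without glia replicate 1 (0.55).

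**Figure D3:**
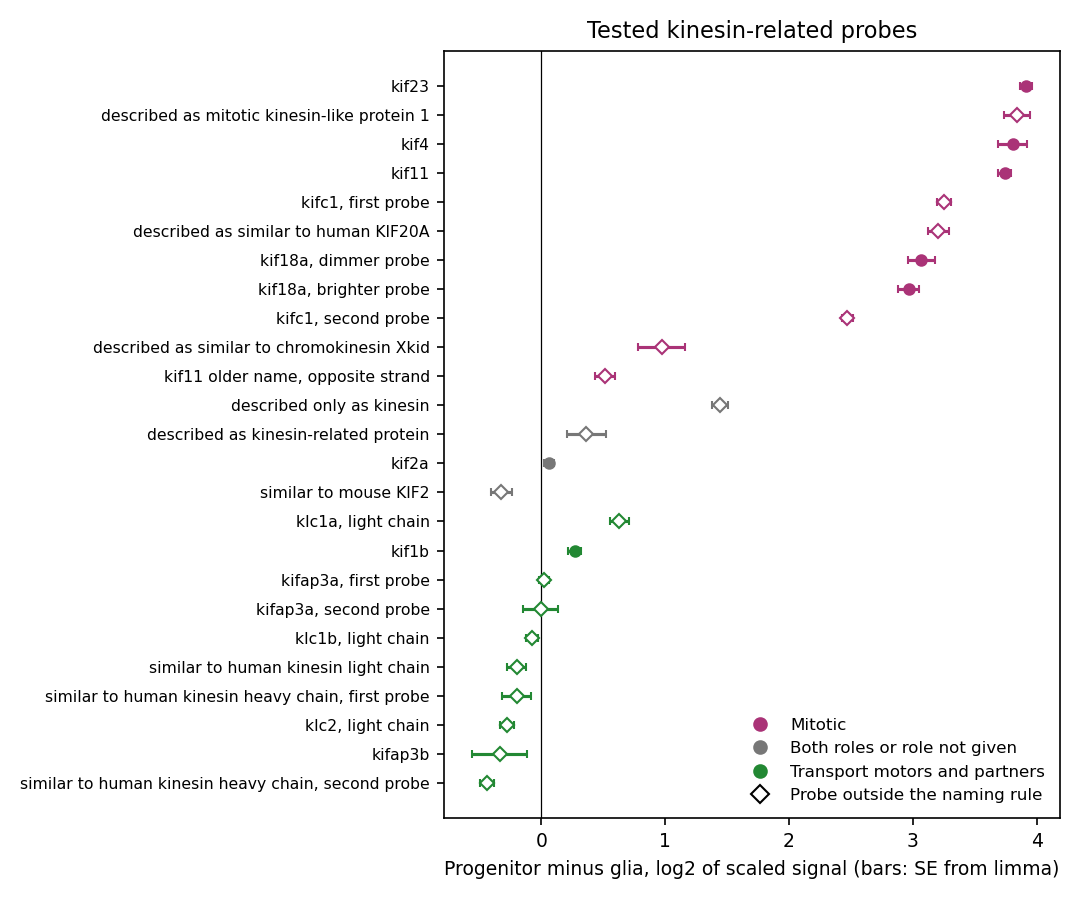
Progenitor minus glia difference (log2 of scaled signal, bars for the SE from limma) of the 25 tested kinesin-related probes, filled circles for probes of the rule and open diamonds for the rest. Mitotic probes reach 3.91, but the probe similar to Xkid stands at 0.97 and the kif11 probe on the opposite strand at 0.52. Transport motors and their partners lie between -0.44 and 0.63. The probe annotated only as kinesin, with no role given, stands at 1.44.

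Most of the tested partners of mitotic kinesins were higher in progenitors. The list was chosen with earlier results of these data known, so its counts describe it and do not test it. Of 24 genes listed for spindle and midbody, kifc1 and cenpe among them, 17 were on the array and 16 were tested, with 14 higher, 1 lower and 1 that did not pass, against 27.6% higher and 40.3% lower over all genes. Their median difference was 3.01, or 2.81 with bounds in place of dim values, against -0.11 over all genes, and 10 were higher with normexp at a median of 1.62. The genes with the smallest p-values were plk1 (4.22 ± 0.04), dlgap5 (3.66 ± 0.04), nusap1 (3.30 ± 0.04), tacc3 (3.01 ± 0.04) and racgap1 (3.49 ± 0.05). plk1 encodes a kinase of mitotic entry and cytokinesis, and dlgap5, nusap1 and tacc3 encode proteins that bundle or stabilise spindle microtubules.

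racgap1 encodes the partner of the kif23 product in centralspindlin, and its rise of 3.49 lay near the 3.91 of kif23, although it fell to 0.90 and lost its call with normexp. The bundling proteins prc1a and prc1b, which recruit the kif4 product to the midzone in human cells, rose by 1.21 ± 0.04 and 2.60 ± 0.07. aurkb, the kinase of the chromosomal passenger complex, rose by 3.51 ± 0.11. cdca8, of the same complex, was not well above background in glia and was at least 5.34-fold higher in progenitors. The one lower gene was tpx2, whose product binds that of kif11 at the spindle in human cells. It was not well above background in progenitors and had no bound above 1, and its -0.97 ± 0.15 turned to 0.16 with spike-in scaling. Without the filter on dim probes another tpx2 probe, too dim to pass that filter, stood for the gene at 0.69.

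Adaptors of transport kinesins and genes of the opposing motor dynein were listed in the same way. Of 37 listed genes 16 were on the array and 15 were tested, with 1 higher, 6 lower and 8 that did not pass, at a median of -0.07. Over all genes 27.6% were higher and 40.3% lower at a median of -0.11. The share of lower genes in the list lay near the background, and that of higher genes, 1 of 15, lay below it. The higher gene was klc1a. The probe standing for dctn3, a dynactin subunit, did not pass at 0.11 ± 0.05, but its dimmer probe was higher by 0.93 ± 0.04 (limma, adjusted p = 0.000446). The 5 lower genes with the smallest p-values were ndel1b (-0.70 ± 0.04), fez1 (-0.63 ± 0.05), pafah1b1b (-0.41 ± 0.05), pafah1b1a (-0.33 ± 0.05) and dctn2 (-0.26 ± 0.05). The dctn2 call ended without glia replicate 1 (-0.26), without glia replicate 2 (-0.26), with normexp (-0.25) and with quantile normalization (-0.13). A dimmer pafah1b1a probe stood at -0.14 ± 0.10 and did not pass (adjusted p = 0.248), and a dimmer ndel1b probe was lower too (-0.97 ± 0.10). ndel1b, pafah1b1a and pafah1b1b encode dynein regulators, dctn2 a subunit of dynactin and fez1 an adaptor of kinesin-1. The direction of this list rested on the scaling: 10 were lower with median scaling, and with spike-in scaling 15 were higher and 0 lower at a median of 1.05.

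**Figure D4:**
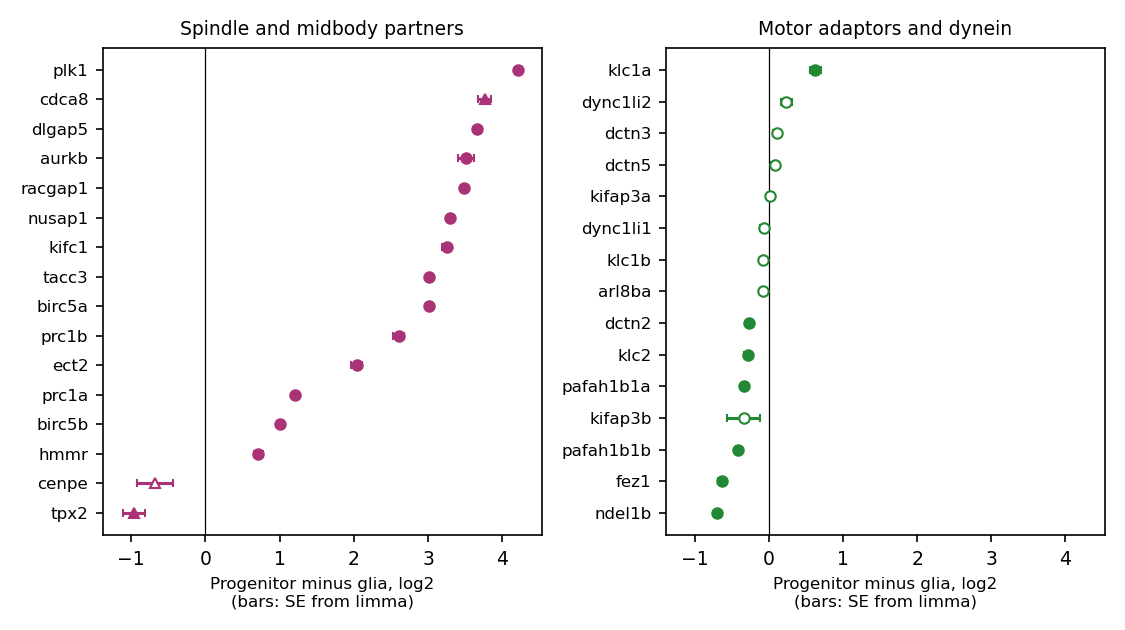
Progenitor minus glia difference (log2 of scaled signal, bars for the SE from limma) of 16 spindle and midbody partners and of 15 motor adaptors and dynein genes, filled where the adjusted p is under 0.05 and as triangles where the gene was not well above background in 1 group. The first list runs from -0.97 to 4.22 and the second from -0.70 to 0.63.

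Markers of several cell types differed between the sorted samples, to be read against 27.6% of all genes higher and 40.3% lower. Of 11 Muller glia markers tested, 7 were higher, gfap among them, rlbp1b was lower, and glula, cahz and aqp1a.1 did not pass. The differences ran from -0.26 to 1.95, the latter for fabp7a, with a median of 0.54. Summed scaled signal of these glia markers was 252 and 256 in glia and 335 and 341 in progenitors. Of 13 microglia and leukocyte markers 12 were higher and 0 lower, with sums of 38.2 and 37.8 against 97.2 and 90.5. Log2 differences of these leukocyte markers ran from 0.32 to 3.46, with a median of 1.75. Of 16 inner retinal neuron markers 3 were higher and 9 lower, with sums of 219 and 219 against 172 and 174. Their median difference was -0.33, against -0.11 over all genes. Of 19 photoreceptor markers 1 was higher and 18 lower, with sums of 938 and 918 against 588 and 599. Each of these tested markers was well above background on at least 1 array of each group, and the leukocyte marker mpx was on the array but not tested. The part of these cells in the kinesin values was not tested.

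kif11, kif23 and kif4 were called higher under all 14 alternatives, and kif18a under 13. Their lowest values with the probes of the rule came with normexp, at 3.17, 3.24 and 3.16. The mean of both kif11 probes, which includes the one on the opposite strand, was 2.13.

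**Figure D5:**
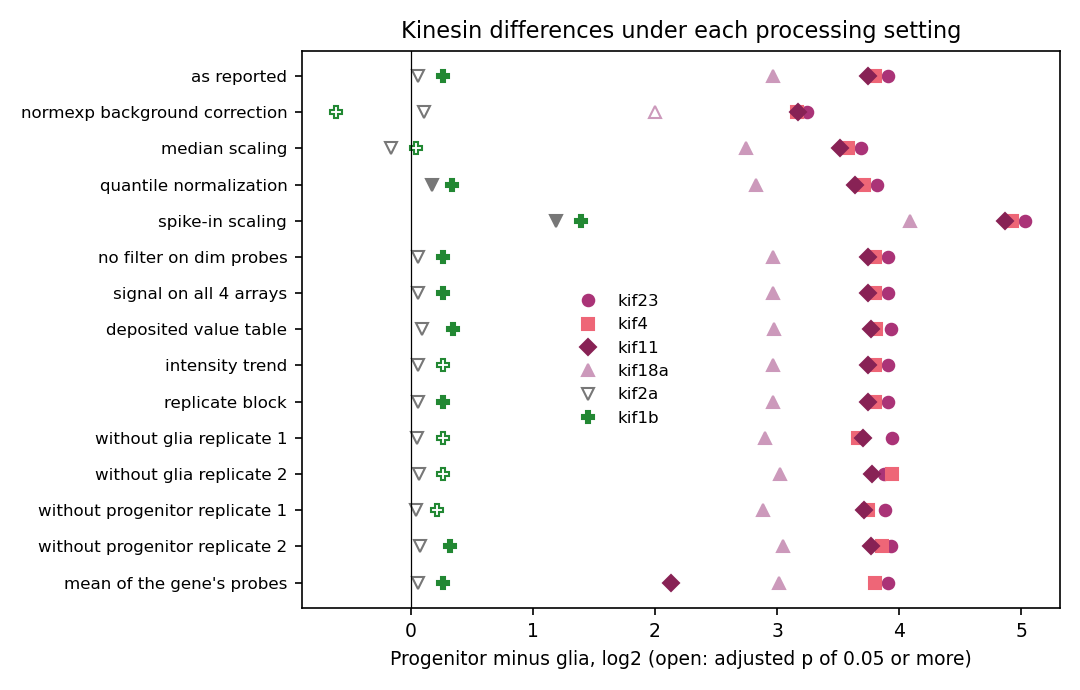
Progenitor minus glia difference (log2) of the 6 kinesin genes as reported and under each of 14 alternative settings, filled where the adjusted p is under 0.05 and open where it is not. kif23, kif4 and kif11 are filled throughout and kif18a is open with normexp only, while kif1b and kif2a change between filled and open and cross 0.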

How the data were processed

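Deposited scanner files give linear intensity per spot. Per the file headers they came from Feature Extraction 9.5.3.1 on array design 015064; the submitters' processing notes state 9.1. Per the file headers spatial and multiplicative detrending were switched on for the processed intensity and background correction was off, no step between arrays is recorded, and all arrays were on 1 slide with 1 scan. The authors also deposited a value table of intensity, which matched a single spot's background-subtracted signal for 100% of values, within a relative tolerance of 0.001.

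From there, control spots (1417) and outlier spots were left out, each array's 75th percentile was subtracted on the log2 scale and the 2 spots of a probe were averaged. Testing was limited to the 16596 of 21495 probes well above background on both arrays of a group. A probe counted as well above background on an array only where all its spots kept were. The log2 values of the scanner files' processed intensity were fitted with limma 3.58.1 (R 4.3.3, data.table version 1.17.8), without the replicate number. Benjamini-Hochberg adjustment ran across every probe kept. The authors' value table served only as an alternative. The model was tested on simulated data. The probe with the highest mean stood for a gene, and for kinesins only probes of the rule did. Probes were named through the RefSeq accession (7323), a current symbol (598), an older name (2352) or the file's name (1638), using the zebrafish gene list of GRCz12tu, and 9584 had no name. Coordinates are the files' own, on danRer2, and exon positions were not used here. Every kinesin of the rule was named, and of the partner lists the 5 genes with the smallest p in each direction and those that pair with a kinesin. For a fold bound, each array of the dim group took the lowest signal well above background or, if higher, the signal of the probe itself. The members and lists were chosen with earlier results of these data known, so no list was tested. Background correction, scaling, filter, value table, probe choice, variance model, block and single arrays were varied.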

Additional observations from a re-analysis of the deposited data

How the results depend on the processing

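Under the 14 alternatives the count of mitotic kinesins called higher was 4, except 3 with normexp, and 0 were called lower. Their median of 3.77 was 3.17 with normexp, 3.55 with median scaling, 3.68 with quantile normalization, 4.89 with spike-in scaling and 3.41 with the mean of a gene's probes, and 3.68 to 3.83 when an array was left out. The gap between that median and kif1b was 3.77 with normexp, 3.34 with quantile normalization, 3.14 with the mean of probes, and 3.41 to 3.56 when an array was left out. All named genes called higher numbered 822 with normexp, 1296 with median scaling and 6623 with spike-in scaling, and those called lower 1147, 4274 and 157. Leaving out an array gave 1603 to 1650 higher and 2107 to 2363 lower.

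Directions turned as follows, and the cause was not tested. With normexp kif1b stood at -0.61, the kinesin-related protein probe at -0.62, the kif11 probe on the opposite strand at -0.59 and klc1a at -0.18. With median scaling kif2a stood at -0.16 and kifap3a at -0.20. With spike-in scaling klc1b stood at 1.05, klc2 at 0.84, kifap3b at 0.79, the heavy chain probes at 0.93 and 0.68, the light chain probe at 0.93 and the mouse KIF2 probe at 0.80. In the same setting ndel1b stood at 0.42, fez1 at 0.50, pafah1b1b at 0.71, pafah1b1a at 0.80, dctn2 at 0.86, cenpe at 0.44, tpx2 at 0.16 and the median of the adaptor list at 1.05. Without the filter on dim probes tpx2 stood at 0.69, a value of its other probe, which that filter left out. The dimmer kifap3a probe, at -0.00 as reported, was 1.12 with spike-in scaling, 0.019 with the deposited table, and -0.17 to 0.16 when an array was left out, with 0.16 without glia replicate 1 and 0.08 without progenitor replicate 1.

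The labels do not say that replicate numbers mark shared fish. Same-numbered arrays deviated together only weakly (r = 0.06 over 16596 probes), and with the replicate number as a block 1801 genes were higher and 2606 lower, with no call of the 6 kinesin genes changed. The signals of kif1b and of the dimmer kif18a probe in glia lie near the local background, which limits both values. Raw glia spots of kif23, kif4 and kif11 were 1.81 to 2.02 times the local background.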
